A study of Homo sapiens with 20 samples.

Results

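Transforming growth factor beta (TGF-β) and bone morphogenetic protein (BMP) pathway transcripts were followed in cultured colorectal cancer cells and in the extracellular vesicles those cells released. The 10 members were taken by symbol from the 17113 genes of the count table: the receptor genes TGFBR1 and TGFBR2, the SMAD genes SMAD2, SMAD3, SMAD4 and SMAD7, the ligand gene BMP4, and the target genes ID1, ID2 and ID3. All 10 were found, and all 10 passed the filter on low counts. The lines were HCT 116, HT-29, SW480, WiDr, LoVo, COLO-201, SNU-C1, LS123, LS513 and LS1034, each with 1 vesicle library and 1 cell library, 20 libraries in all. The labels gave LS1034 and LS513 as cecum and the other 8 as colon, all labelled WT and adenocarcinoma. The labels name no introduced allele and no agent for any line. The cultures were grown in RPMI-1640 or DMEM with fetal bovine serum. They are established tumour lines without stroma, and a line is represented by a single cell library, so p-values measure the spread between lines and not between cultures of a line.

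TGF-β ligands bring together a type II receptor, such as TGFBR2, and a type I receptor, such as TGFBR1. The active type I receptor phosphorylates SMAD2 and SMAD3, which join SMAD4 and enter the nucleus to regulate genes, while SMAD7 is an inhibitory SMAD that TGF-β itself induces. BMPs act through other receptors and SMAD1, SMAD5 and SMAD9, and ID1, ID2 and ID3 are widely used readouts of that arm. In the normal colon the TGF-β arm restrains epithelial growth, BMP signalling favours differentiation away from the crypt base, and loss of TGFBR2 or SMAD4 is a known event in colorectal cancer.

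Vesicle libraries held 1748238 to 24358033 gene counts, and cell libraries held 24777352 to 37418506. A count of 3 was therefore worth 0.123 to 1.72 CPM (counts scaled to a common library size) in vesicle libraries and 0.0802 to 0.121 CPM in cell libraries. Vesicle RNA and cell RNA were also prepared with different kits, a SMART-Seq v4 amplification for vesicles and a stranded ribosomal-depletion kit for cells, so compartment and kit cannot be told apart in any value below. Genes with no more than 10 counts in any cell library, called silent here, still carried counts in vesicle libraries, and a background estimated from the 2077 such genes made up 1.82% to 45.4% of vesicle counts and 0.0328% to 0.151% of cell counts. The 5 lines with the lower vesicle background were COLO-201, HT-29, LS513, HCT 116 and SW480. Among the cell libraries, HT-29 resembled WiDr and HCT 116 resembled LS123, with correlations of their deviations from the gene means of 0.805 in both pairs against 0.328 for the next closest pair, so the 10 lines may not be 10 independent samples. Values with n = 10 and their p-values assume that they are. Counts of members that passed are also given without WiDr and LS123, but those of the other pathway genes are not. Epithelial markers summed to 2023 to 15659 CPM in vesicle libraries and to 2395 to 16524 CPM in cell libraries, with KRT20 at 0 in 1 vesicle library, CDX1 at 0 in 2 cell libraries and the other 8 above 0 in all 20. Fibroblast and endothelial markers, of which 8 of 10 were in the table, summed to 24.6 to 527 CPM in vesicles against 0.605 to 18.6 CPM in cells, with 2 of the 8 at 0 in at least 1 vesicle library and 7 of the 8 at 0 in at least 1 cell library. Leukocyte markers, 5 of 6 in the table, summed to 6.50 to 118 CPM in vesicles against 0.161 to 9.38 CPM in cells, with 2 and all 5 at 0 in at least 1 library of vesicles and of cells. Serum protein and hepatocyte markers summed to 11.3 to 715 CPM in vesicles against 0.401 to 759 CPM in cells, with 1 and 3 of the 4 at 0 in at least 1 library of vesicles and of cells. The part of these other markers in the results was not tested.

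Of the 10 pathway transcripts, 9 were lower in vesicles than in cells and none was higher. The test was edgeR's quasi-likelihood fit with the line as a block and trimmed-mean (TMM) scaling, with Benjamini-Hochberg adjustment over 15130 genes and a threshold of 0.05. ID3 was the member that did not pass. The median log2 fold change, vesicle over cell, was -1.64 for the members and 0.01 for all genes tested. Over all genes 28.1% were lower in vesicles and 28.6% were higher. Of the genes called higher, 535 of 4322 averaged 10 CPM or more in cells. Among the 10033 genes that averaged so much, all 10 members included, 42.2% were lower, 5.33% were higher and the median log2 fold change was -0.53. In 6 members (TGFBR1, TGFBR2, SMAD3, BMP4, ID1 and ID2) the vesicle level was below the cell level in all 10 lines, as it was for 15.6% of genes tested. Among the 5097 genes that averaged less, 74.3% were higher and 0.373% were lower. In the 5 lines of lower background 4 members were lower, TGFBR1, TGFBR2, SMAD3 and BMP4, beside 19.0% of all genes tested there. With background subtracted 7 members were lower, without SMAD2 and ID2, beside 18.9% of all genes tested there. Without WiDr and LS123, 8 members were lower, SMAD2 no longer among them, beside 3783 of the 15015 genes tested there. The balance of calls over all genes depended on scaling: upper-quartile scaling, which moved the median of all genes to 0.76, gave 6957 higher and 1759 lower, against 4322 higher and 4254 lower with TMM, and 7 members were lower there, without SMAD2 and SMAD7. DESeq2 size factors gave 5325 higher, 2802 lower and 8 members lower, and library size alone gave 5532 higher, 2465 lower and 7 members lower. In bulk RNA, fewer cells or vesicles carrying a transcript and less of it in each cannot be told apart.

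**Figure D1:**
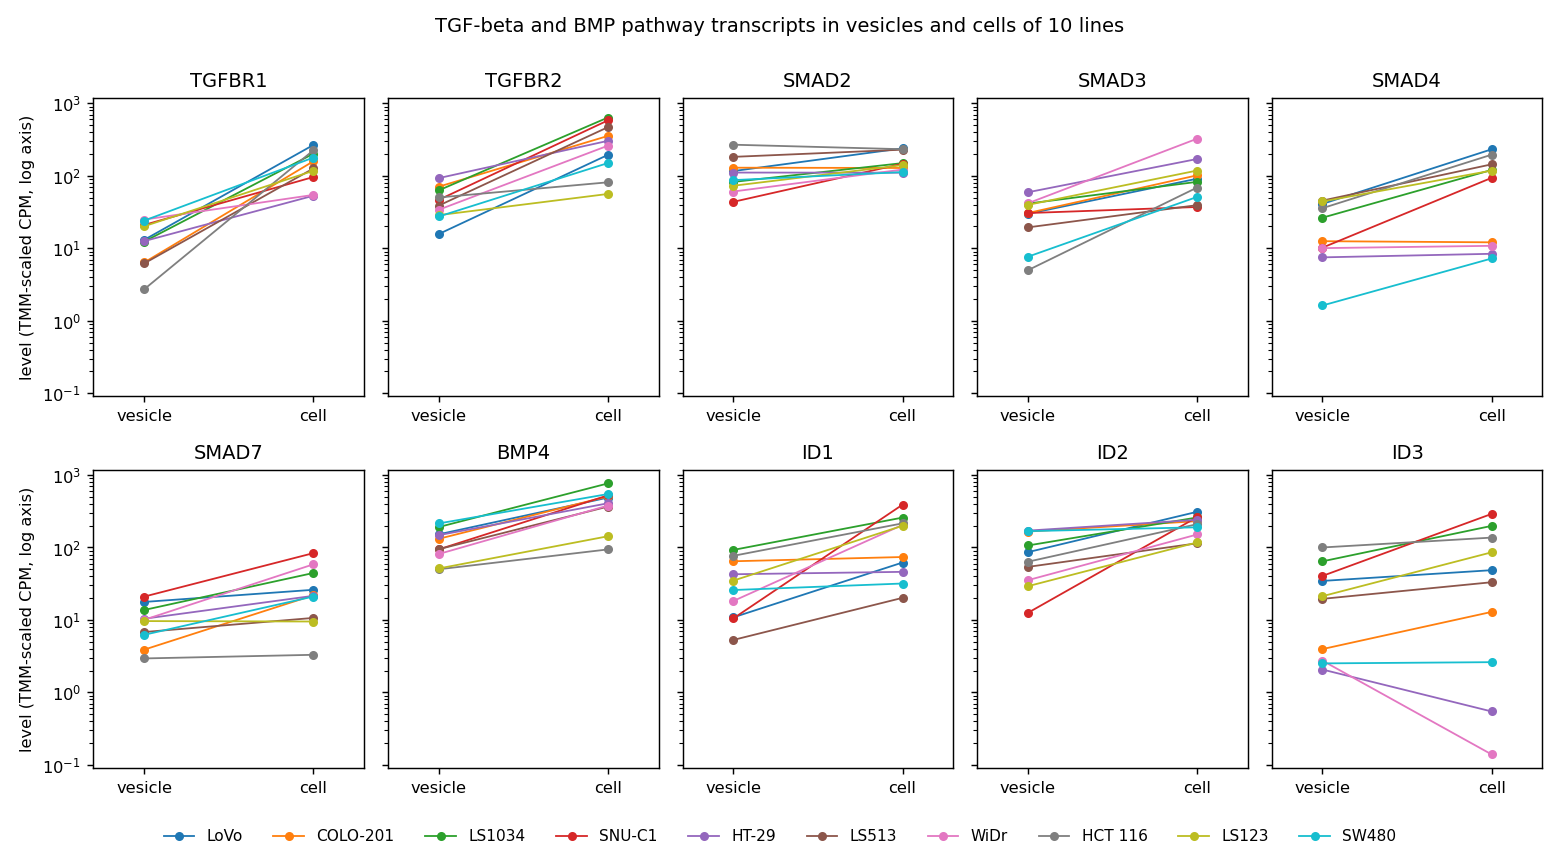
Each panel shows 1 transcript, with the vesicle level on the left joined to the cell level of the same line on the right, in TMM-scaled CPM on a log axis. TGFBR1 is the member whose vesicle and cell levels do not overlap, SMAD4 forms a low set of 4 lines, and ID3 has the widest range in cells.

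The receptor transcripts showed the lowest ratios of vesicle to cell over all 10 lines with TMM scaling. After subtraction of background SMAD7 (-2.52) was below TGFBR2 (-2.03), and in the 5 lines of higher background ID1 (-2.95) was below both receptors (-2.90 for TGFBR2 and -2.81 for TGFBR1). TGFBR1, the type I receptor, ranged over 2.72 to 24.9 CPM in vesicles with a median of 12.8 CPM, against 53.1 to 267 CPM in cells with a median of 143 CPM. Every vesicle library was below every cell library, a separation in that direction that 4.48% of genes tested showed. The mean was 14.3 ± 7.88 CPM in vesicles and 148 ± 71.3 CPM in cells (SD, n = 10 each), and the log2 fold change was -3.38 (SE 0.46, edgeR adjusted p = 2.65e-05). HCT 116 had the lowest vesicle level, 2.72 CPM from 12 counts, beside 225 CPM in its cells. WiDr had the highest, 24.9 CPM, beside 54.5 CPM in its cells, the second lowest cell level after HT-29. In 6 lines the vesicle count of TGFBR1 was under 2 times the background expected for its length and GC class. In those vesicles its level thus lay near what silent genes show. With that background subtracted the log2 fold change was -3.66 (edgeR adjusted p = 0.000287).

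TGFBR2, the type II receptor that binds the ligand first, had 15.7 to 93.0 CPM in vesicles (median 42.8) and 56.2 to 638 CPM in cells (median 282). The vesicle mean of 46.9 ± 23.3 CPM stood against 309 ± 202 CPM in cells (SD, n = 10 each), and the log2 fold change was -2.52 (SE 0.34, edgeR adjusted p = 2.24e-05). In cells the lowest lines were LS123 with 56.2 CPM and HCT 116 with 81.4 CPM, and the highest were LS1034 with 638 CPM and SNU-C1 with 583 CPM. The vesicle order was not the same: LoVo vesicles had the lowest TGFBR2 at 15.7 CPM, beside 195 CPM in LoVo cells. HT-29 vesicles had the highest at 93.0 CPM, beside 304 CPM in HT-29 cells. TGFBR2 also fell in the 5 lines of lower background (log2 fold change -2.13, edgeR adjusted p = 0.00602).

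**Figure D2:**
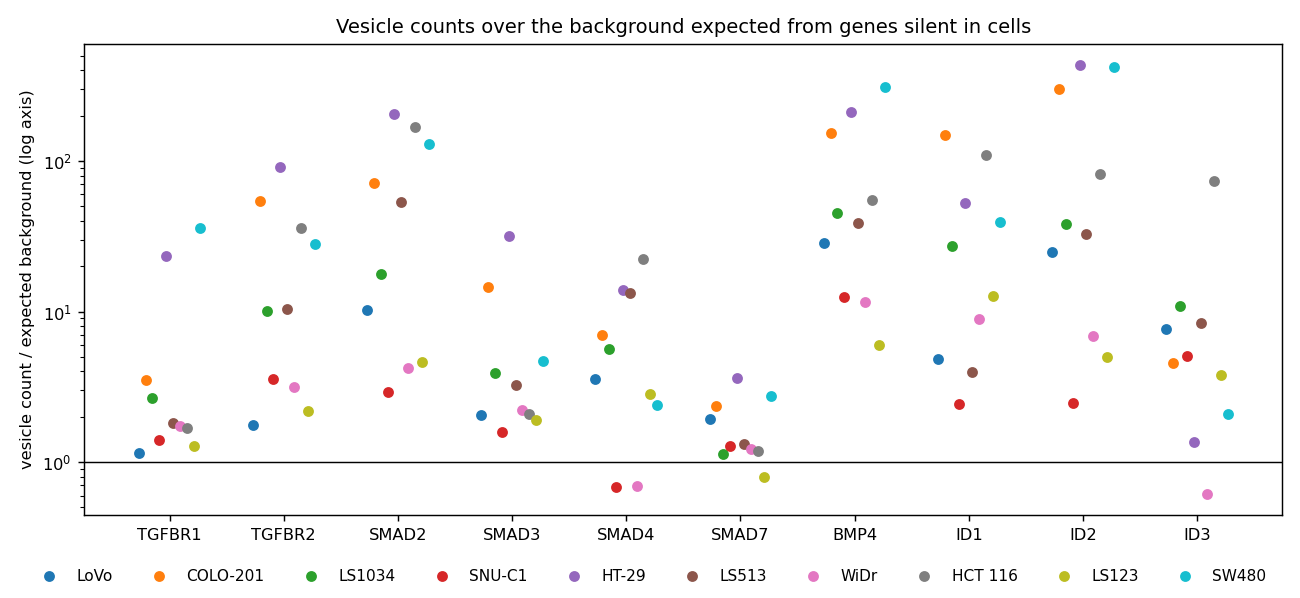
Each point is 1 line's vesicle count of a transcript divided by the background count expected from silent genes of the same length and GC class. The axis is a log axis, and the line at 1 marks equality. The longest class is open-ended, so the background of SMAD2, with 36.4 kb of annotated exons, is not scaled to its length. SMAD7 and TGFBR1 lie nearest the line, while SMAD2, BMP4, ID1 and ID2 lie above 2 in all 10 lines.

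SMAD3 and SMAD2 are the receptor-regulated SMADs of the TGF-β arm. SMAD3 had 4.98 to 59.3 CPM in vesicles (median 30.6) and 37.1 to 325 CPM in cells (median 86.9). Its log2 fold change was -1.77 (SE 0.32, edgeR adjusted p = 0.000288), and it also fell where background was lower (-2.08, edgeR adjusted p = 0.00645) and after subtraction of background (-1.58, edgeR adjusted p = 0.00537). WiDr cells had the highest SMAD3, 325 CPM, beside 41.8 CPM in WiDr vesicles. HCT 116 vesicles had the lowest, 4.98 CPM from 22 counts where 10.6 were expected from background, beside 68.9 CPM in HCT 116 cells. Over the 10 lines the vesicle count of SMAD3 was a median of 2.73 times the expected background, and it was under 2 times in 2 lines.

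SMAD2 had the smallest difference of the 9 members that passed. It had 43.7 to 269 CPM in vesicles (median 99.04) and 110 to 240 CPM in cells (median 144), with means of 116 ± 66.7 CPM in vesicles and 161 ± 51.9 CPM in cells (SD, n = 10 each). It was lower in vesicles in 7 lines and not in COLO-201, HT-29 and HCT 116. The log2 fold change was -0.58 (SE 0.22, edgeR adjusted p = 0.0340). The call ended, at log2 0.083 and an edgeR adjusted p of 0.750, when background was subtracted, and at 0.17 with upper-quartile scaling (edgeR adjusted p = 0.425), both on the other side of 0. It was -1.08 in the 5 lines of higher background (edgeR adjusted p = 0.00557). In the 5 with lower background it was -0.07 (edgeR adjusted p = 0.808). A test of that difference gave -0.97 (SE 0.27, edgeR adjusted p = 0.0501), where 7.5% of all genes passed the same test. Leaving out LoVo, LS1034, SNU-C1, WiDr or LS123 also ended the SMAD2 call.

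**Figure D3:**
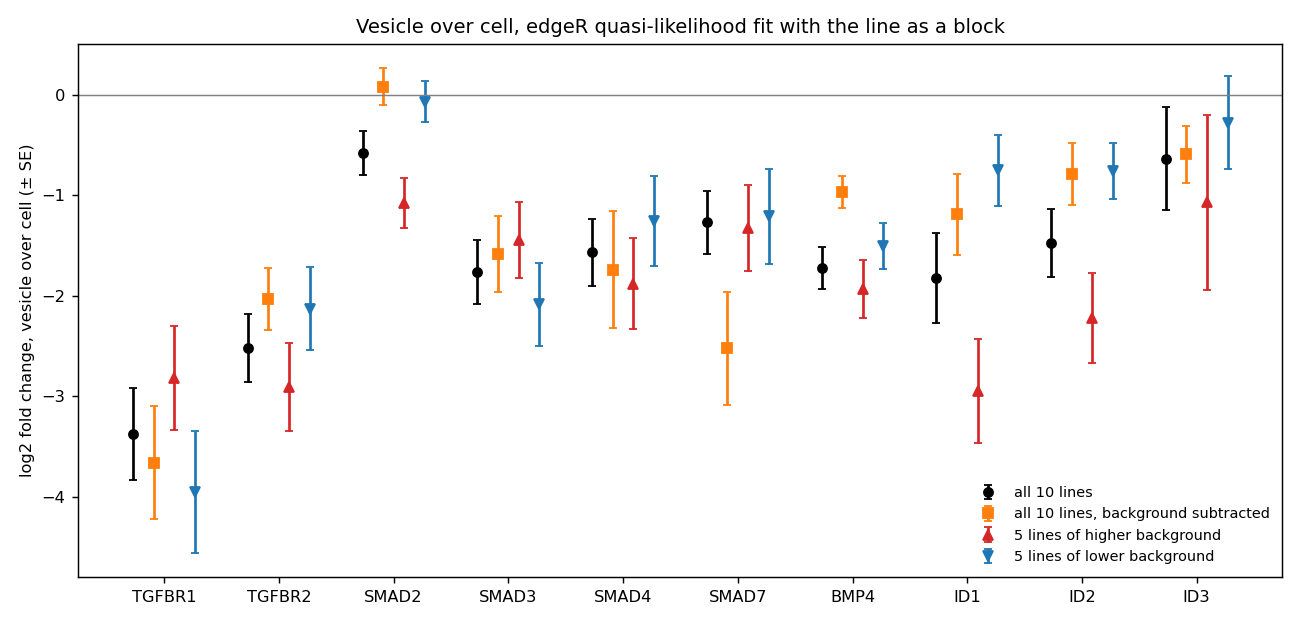
Points show the log2 fold change of vesicle over cell for each transcript, with bars of 1 standard error, for all 10 lines, for all 10 lines after background subtraction, and for the 5 lines of higher and of lower vesicle background. TGFBR1, TGFBR2, SMAD3, SMAD4, SMAD7 and BMP4 stay below -0.9 in all 4 fits, while SMAD2 crosses 0 after background subtraction.

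SMAD4, the common SMAD shared by the TGF-β and BMP arms, split the lines into a low and a high set in cells. In cells SW480 had 7.23 CPM, HT-29 8.39 CPM, WiDr 10.8 CPM and COLO-201 12.1 CPM. The remaining cells ranged upward from 93.9 CPM in SNU-C1 to 233 CPM in LoVo, with nothing between 12.1 and 93.9 CPM. In vesicles SW480 had 1.62 CPM, HT-29 7.49 CPM, WiDr 10.0 CPM and COLO-201 12.5 CPM, and the other lines had 10.2 CPM in SNU-C1 and 26.4 to 45.5 CPM in the rest. SNU-C1 was thus the line where cells and vesicles took different places. Its vesicle SMAD4 came from 35 counts, below the 51.0 expected from background, and WiDr vesicles had 44 counts against 63.1 expected. The mean was 23.5 ± 17.0 CPM in vesicles and 94.4 ± 82.9 CPM in cells (SD, n = 10 each), and the log2 fold change was -1.57 (SE 0.34, edgeR adjusted p = 0.00114). In COLO-201 the vesicle and cell levels differed by 0.05 on the log2 scale, and in LoVo by -2.50. In the 5 lines of lower background, which include 3 of the 4 low lines, the SMAD4 difference was -1.26 and did not pass (edgeR adjusted p = 0.0563).

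The low-SMAD4 lines also stood at the low end for 2 other members in cells. HT-29, SW480, WiDr and COLO-201 had the 4 lowest SMAD2 levels, from 110 to 128 CPM against 140 to 240 CPM in the other 6 lines. They also had the 4 lowest ID3 levels, from 0.139 to 12.9 CPM against 33.2 to 291 CPM. These are orders of levels in the same 10 libraries, described without a test. HT-29 and WiDr, whose cell libraries resembled each other, may not count as separate lines in them. SMAD2, SMAD7 and SMAD4 are neighbours on chromosome 18 (starts 47808957, 48919853 and 51028394 in GRCh38), yet SMAD7 did not follow that order: WiDr, one of the low-SMAD4 lines, had the second highest SMAD7.

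**Figure D4:**
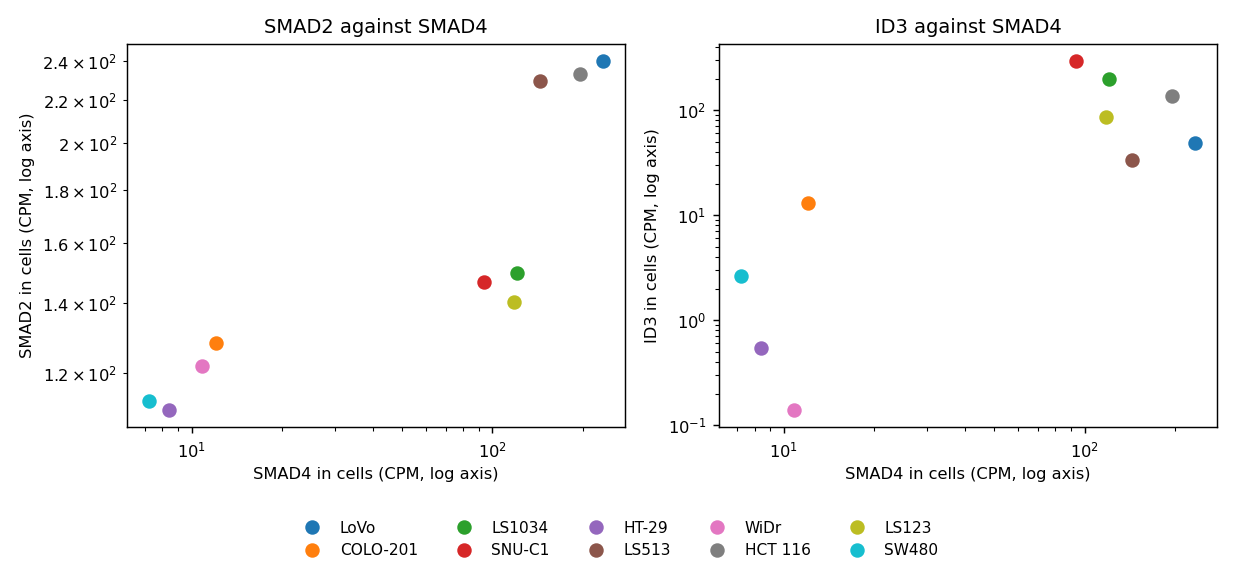
Cell levels of SMAD2 (left) and ID3 (right) against cell levels of SMAD4 in the same 10 lines, in CPM on log axes. The 4 lines with at most 12.1 CPM of SMAD4 are also the lowest in SMAD2 and in ID3. HT-29 and WiDr, both among them, had cell libraries that resembled each other.

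SMAD7, the inhibitory SMAD, was the member nearest to background in vesicles. It had 2.94 to 21.0 CPM there (median 9.85) and 3.30 to 83.6 CPM in cells (median 21.7), with HCT 116 lowest and SNU-C1 highest in both. The log2 fold change was -1.27 (SE 0.32, edgeR adjusted p = 0.00346). In 7 lines the vesicle count was under 2 times the expected background, and in LS123 it was 0.792 times that background. With background subtracted the difference was -2.52 (edgeR adjusted p = 0.00345), and 18.9% of all genes were lower in that fit. SMAD7 did not pass with upper-quartile scaling (-0.52, edgeR adjusted p = 0.212), with library size alone (-0.79, edgeR adjusted p = 0.0855) or in the 5 lines of lower background (-1.21, edgeR adjusted p = 0.0733).

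BMP4, a secreted ligand of the BMP arm, was the most abundant member per length in cells, with a median of 462 TPM (counts scaled by exonic length and library size). It had 50.04 to 215 CPM in vesicles (median 113) and 94.1 to 766 CPM in cells (median 448). HCT 116 and LS123 were lowest in both compartments, with 50.04 and 51.4 CPM in vesicles and 94.1 and 143 CPM in cells. The mean was 121 ± 56.2 CPM in vesicles and 422 ± 196 CPM in cells (SD, n = 10 each). The log2 fold change was -1.72 (SE 0.21, edgeR adjusted p = 1.06e-05), and the differences by line lay between -2.47 and -0.91. Its vesicle counts were at least 5.99 times the expected background, and it also fell in the lower-background lines (-1.50, edgeR adjusted p = 0.00276) and after subtraction (-0.97, edgeR adjusted p = 0.000481).

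The ID genes encode helix-loop-helix proteins without a DNA-binding domain that hold E proteins away from DNA, and BMP signalling induces them. The stretch upstream of ID1 is shown because GTCT is the core word that SMAD3 and SMAD4 bind, and ID1 had the most of these words among the ID genes. It is the RefSeq promoter of GRCh38.p14, chr20:31605039-31605282 on the plus strand, 5′ to 3′, with GTCT or its reverse complement AGAC in capitals.
ID1: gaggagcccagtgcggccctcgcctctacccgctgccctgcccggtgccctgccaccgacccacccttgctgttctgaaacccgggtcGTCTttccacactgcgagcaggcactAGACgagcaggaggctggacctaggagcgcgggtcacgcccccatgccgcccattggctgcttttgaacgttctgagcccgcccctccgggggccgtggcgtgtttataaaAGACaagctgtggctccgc
These 4-letter words were searched on both strands in the 250 bases before each RefSeq start, of which the 244 before the first annotated exon of ID1 are printed: ID1 had 3, and ID2 and ID3 had 2 each. GTCT or AGAC is common, since 77.5% of 35116 RefSeq promoters held at least 1, with a mean of 1.55. None of the 3 ID promoters held GGCGCC, a BMP-SMAD word found in 16.4% of promoters. A match is a description of letters, not of binding.

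ID1 had 5.30 to 92.5 CPM in vesicles (median 30.4) and 20.2 to 390 CPM in cells (median 137). LS513 was lowest in both compartments, with 5.30 CPM in vesicles and 20.2 CPM in cells. LS1034 was highest in vesicles with 92.5 CPM, and SNU-C1 was highest in cells with 390 CPM beside 10.5 CPM in its vesicles. The log2 fold change over all lines was -1.82 (SE 0.45, edgeR adjusted p = 0.00295). It was -2.95 in the 5 lines of higher background (edgeR adjusted p = 0.00163), where 25.5% of all genes were lower. In the 5 lines of lower background it was -0.75 and did not pass (edgeR adjusted p = 0.124), where 19.0% of all genes were lower. The test of that difference gave -2.16 (SE 0.64, edgeR adjusted p = 0.0590), which missed the threshold.

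ID2 had 12.5 to 171 CPM in vesicles (median 74.9) and 114 to 311 CPM in cells (median 220), the second narrowest range in cells after SMAD2. Its log2 fold change was -1.47 (SE 0.34, edgeR adjusted p = 0.00203). SNU-C1 stood apart with a difference of -4.37, with 12.5 CPM in vesicles beside 262 CPM in cells. The other lines lay between -2.09 in WiDr and -0.18 in SW480. The 3 lines with the smallest differences, SW480, COLO-201 and HT-29, had vesicle levels of 168, 166 and 171 CPM and the 3 lowest vesicle backgrounds. HCT 116, with the next lowest background of 2.99%, had a difference of -1.72, while LS1034, with 17.1%, had -1.28. In the 5 lines of lower background the difference was -0.76 (edgeR adjusted p = 0.0585) and after subtraction -0.79 (edgeR adjusted p = 0.0615), and neither passed.

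ID3 had by far the widest range in cells, from 0.139 CPM in WiDr, which was 3 counts, to 291 CPM in SNU-C1. HT-29 cells had 0.546 CPM from 13 counts, SW480 cells 2.62 CPM and COLO-201 cells 12.9 CPM. In vesicles the same 4 lines were the lowest, with 2.07 CPM in HT-29, 2.52 CPM in SW480, 2.74 CPM in WiDr and 3.96 CPM in COLO-201. HCT 116 had the most ID3 in vesicles at 100 CPM, beside 137 CPM in its cells. The WiDr vesicle value rested on 12 counts where 19.4 were expected from background, and the HT-29 value on 45 counts where 33.0 were expected. The means were 29.2 ± 32.3 CPM in vesicles and 81.1 ± 99.01 CPM in cells (SD, n = 10 each), and the log2 fold change of -0.63 did not pass (SE 0.51, edgeR adjusted p = 0.305).

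Whether a line with more of a transcript in its cells also had more in its vesicles was asked with Pearson's r of log2 CPM over the 10 lines. The relation was strongest for ID3 and BMP4 among the 8 members whose lines did not fall into separate sets. ID3 had r = 0.906 and rho = 0.903 (permutation p = 0.00019 and adjusted p = 0.0324 on r, adjusted p = 0.0802 on rho, over 13492 genes). BMP4 had r = 0.873 and rho = 0.806 (permutation p = 0.00068 and adjusted p = 0.0473 on r, adjusted p = 0.147 on rho). Over all genes 1.68% had a positive r past the threshold, and 0% had a rho past it. Without the 2 lines farthest from the median cell level, r was 0.909 for ID3 and 0.671 for BMP4, so the BMP4 relation rested in part on HCT 116 and LS123. For ID3 the lines left out were HT-29 and WiDr, while SW480 and COLO-201, also low in both compartments, stayed in. In vesicles HT-29, SW480, WiDr and COLO-201 had 2.07 to 3.96 CPM of ID3, and every other line had at least 19.6 CPM. The ID3 relation within those other lines was not tested. Without WiDr and LS123 no member tested passed on r, with ID3 at 0.928 (permutation adjusted p = 0.0551). BMP4 and ID2 were not tested there, since their remaining lines fell into separate sets in cells. Leaving out 1 line at a time left 0 to 1 members past the threshold, with r from 0.881 to 0.933 for ID3. For BMP4 r ranged from 0.871 to 0.915 where it was tested. Leaving out HCT 116, LS123 or LS1034 split the other lines into separate sets for BMP4, so no r was tested there.

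The other 6 members did not pass. SMAD7 had r = 0.732 (permutation adjusted p = 0.152), and r was 0.330 without HCT 116 and SNU-C1. SMAD3 had r = 0.515, TGFBR2 0.413, ID1 0.353 and ID2 0.289. TGFBR1 was the member with a negative r, -0.421 (permutation adjusted p = 0.486). SMAD4 and SMAD2 formed separate sets of lines in cells, so no pooled r is given. Within the 6 lines of higher SMAD4, r was 0.629 (exact permutation p = 0.15), and within the 7 lines of lower SMAD2, r was -0.485 (exact permutation p = 0.271).

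**Figure D5:**
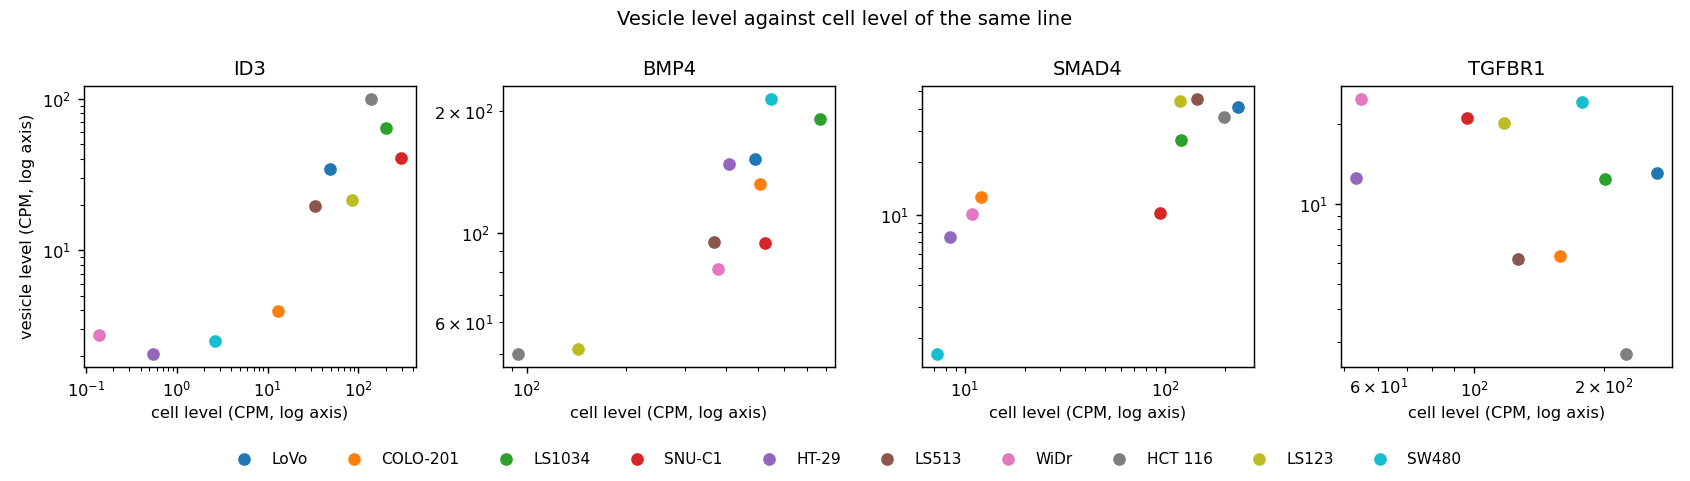
Vesicle level against cell level of the same line for ID3, BMP4, SMAD4 and TGFBR1, in CPM on log axes, with 1 point for each of the 10 lines. ID3 and BMP4 levels climb together across lines, SMAD4 shows 4 lines apart from the others along the cell axis, and TGFBR1 shows no upward order.

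Compared per length in cells, the medians stood in the order BMP4 462 TPM, ID1 363 TPM, ID2 326 TPM, TGFBR2 189 TPM, ID3 75.0 TPM, TGFBR1 68.3 TPM, SMAD3 32.7 TPM, SMAD4 26.8 TPM, SMAD7 13.7 TPM and SMAD2 13.3 TPM. The ranges of neighbours in that order overlapped. The SMAD2 value divides by 36.4 kb of annotated exons, which include long isoforms, so its place in this order is uncertain. The genes whose cell levels followed a member most closely over the 10 lines are given for the 8 members whose lines did not form separate sets. For ID3 they were SEC23A (r = 0.937), KLF7 (0.932) and DCBLD1 (0.921), and for BMP4 ME3 (0.972), RRP8 (0.970) and ACOT2 (0.966). For TGFBR2 they were SH3BGRL2 (r = 0.970), OSBPL2 (0.966) and TMPRSS4 (0.957), and for TGFBR1 CDC23 (0.939), ZC3H14 (0.935) and ZBED8 (0.929). For SMAD7 they were ZNF324 (r = 0.894), YTHDF1 (0.891) and EDC3 (0.890). For SMAD3 the second of the list was the BMP type I receptor gene ACVR1 (r = 0.904), between SLC25A22 (0.914) and ZNF776 (0.898). For ID1 they were CYP27B1 (r = 0.881), CDH24 (0.840) and LNPK (0.828), and for ID2 MTERF2 (0.930), KIF21A (0.900) and INAFM2 (0.851). These are the highest of 10045 genes compared for each member, in libraries that share depth and composition, and carry no test.

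Of 82 other pathway genes listed, 80 were in the table and 75 were tested: 20 were higher in vesicles (26.7%) and 26 were lower (34.7%), beside 28.6% and 28.1% of all genes. Calls followed the level in cells, as they did over all genes. Of the 47 listed genes that averaged 10 CPM or more in cells 26 were lower (55.3%, beside 42.2% of all such genes) and 1 was higher. Of the 28 that averaged less 19 were higher (67.9%, beside 74.3% of all such genes) and none was lower. Of the 20 that were higher, 14 had summed vesicle counts under 2 times the expected background, and 2 had fewer counts than expected. Of the 4 remaining SMADs 2 were lower and none was higher. SMAD5, a BMP-arm SMAD, had 72.3 ± 44.8 CPM in vesicles and 190 ± 76.2 CPM in cells (SD, n = 10 each, log2 fold change -1.51, edgeR adjusted p = 0.000399), and SMAD1 had a log2 fold change of -0.93 (edgeR adjusted p = 0.0174). SMAD9, scarce in cells, did not pass at 1.42 (edgeR adjusted p = 0.148).

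Of 15 corepressors and SMAD regulators 10 were lower and none was higher, and all 10 were among the 14 that averaged 10 CPM or more in cells (71.4%, beside 42.2% of all such genes). Among them were the SMAD4 deubiquitinase gene USP9X (log2 fold change -2.44), the inner nuclear membrane SMAD antagonist gene LEMD3 (-2.51) and the SMAD4 ubiquitin ligase gene TRIM33 (-1.31), with edgeR adjusted p-values of 1.33e-06, 6.35e-06 and 5.56e-05. Of 13 other receptors and co-receptors 7 were lower and 4 higher: the 7 were among the 9 that averaged 10 CPM or more in cells (77.8%, beside 42.2%), and the 4 were the 4 that averaged less (beside 74.3% higher). The type II BMP receptor gene BMPR2 fell by 1.53 (edgeR adjusted p = 0.000725) and the BMP co-receptor gene RGMB by 1.92 (edgeR adjusted p = 0.000641), both on the log2 scale. ACVRL1, a type I receptor gene of endothelium, was higher by 5.23 (edgeR adjusted p = 0.000285), with 13.2 ± 9.67 CPM in vesicles and 1.28 ± 1.89 CPM in cells (SD, n = 10 each). The E-protein genes TCF12 and TCF3, whose products the ID proteins bind, fell by 1.29 and 0.85 on the log2 scale (edgeR adjusted p = 0.000361 and 0.00306). TCF4 rose by 3.93 (edgeR adjusted p = 0.00549), with a mean of 1.71 CPM in cells, in the range where 74.3% of all genes were higher. The vesicle level of TCF4 ran from 0.786 CPM in SW480, beside 1.83 CPM in SW480 cells, to 52.8 CPM in LS123.

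Ligands other than BMP4 were mostly scarce in cells. Of 7 TGF-β and activin ligands tested, 5 were higher and none was lower, and the 5 included all 4 that averaged under 10 CPM in cells, a range where 74.3% of all genes were higher. GDF11 had 25.3 ± 23.9 CPM in vesicles and 1.97 ± 0.818 CPM in cells (SD, n = 10 each), a log2 fold change of 3.33 (edgeR adjusted p = 9.96e-06). INHBA (5.07) and TGFB3 (2.73) also rose (edgeR adjusted p = 0.00325 and 0.00493). INHBB, the ligand called higher with 10 CPM or more in cells, averaged 7.09 CPM in vesicles and 10.7 CPM in cells (log2 fold change 3.42, edgeR adjusted p = 0.0494). Of 7 BMP and GDF ligands 1 was lower, GDF15 (-1.74, edgeR adjusted p = 0.00899), and 2 of the 4 that averaged under 10 CPM in cells were higher (beside 74.3%): BMP5 (4.33, edgeR adjusted p = 0.0103) and BMP8A. BMP6 did not pass (1.52, edgeR adjusted p = 0.131). The vesicle counts of BMP5 summed to 434 where 202 were expected from background, and those of BMP8A to 116 where 215 were expected. Those of INHBA summed to 422 where 333 were expected, and those of ACVRL1 to 784 where 429 were expected. Those of TGFB3 summed to 560 where 310 were expected, and those of INHBB to 588 where 347 were expected.

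Of 6 secreted antagonists tested 3 were higher and 1 lower, and the 3 were among the 4 that averaged under 10 CPM in cells (75.0%, beside 74.3%). NOG, 1 of the 3, had 274 vesicle counts where 215 were expected from background. CHRD, which binds BMPs, rose by 3.81 (edgeR adjusted p = 0.00446), TWSG1 fell by 2.43 (edgeR adjusted p = 9.88e-06), and GREM1 did not pass at 3.24 (edgeR adjusted p = 0.0594). Of 7 latency genes 3 were higher and 1 lower, the 3 among the 4 that averaged under 10 CPM in cells (75.0%, beside 74.3%), with LTBP2 at 3.33 (edgeR adjusted p = 0.00194), the proprotein convertase gene FURIN at -1.68 (edgeR adjusted p = 1.52e-05) and LTBP1 at 1.35 without passing (edgeR adjusted p = 0.0610). NRROS, another of the 3, had 318 vesicle counts where 347 were expected. Of 13 other target genes 2 were higher (15.4%, beside 28.6% of all genes) and 2 lower (15.4%, beside 28.1%). ATOH8, 1 of the 2 that were higher, had 790 vesicle counts where 740 were expected. TAGLN, a smooth muscle and fibroblast gene, rose by 3.37 (edgeR adjusted p = 3.21e-05), while JUNB (-1.17) and MSX2 (-0.67) fell (edgeR adjusted p = 0.00841 and 0.0184). INHBB, BMP8A, NOG, NRROS and ATOH8 are outside the rule for named genes and were named after their values were seen. CHRD counts summed to 1130 in vesicles where 740 were expected from background. The fibroblast and endothelial markers summed to 24.6 to 527 CPM in vesicles against 0.605 to 18.6 CPM in cells, without TMM scaling. The marker sums, like ACVRL1 and TAGLN, were higher in vesicle than in cell libraries. By line, ACVRL1 was highest in SNU-C1 vesicles (30.9 CPM) and TAGLN in LS513 vesicles (44.4 CPM). The part of the markers in these results was not tested.

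The labelled site gave no member past the threshold in either compartment. In vesicles, cecum over colon, 1 of 16808 genes passed (0.00595%), and 1.49% had an unadjusted p under 0.05. In cells 0 of 14342 genes passed in edgeR (0%), 6.65% had an unadjusted p under 0.05, and DESeq2 called 2.71%. No member had an unadjusted p under 0.05 in either. The largest member difference in cells was TGFBR2, with 638 and 469 CPM in LS1034 and LS513, the cecum lines, against 56.2 to 583 CPM in the colon lines (log2 fold change 1.16, SE 0.66, edgeR adjusted p = 0.736). With 2 cecum lines, a difference of this size could not be told from the spread between lines.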

How the data were processed

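Gene counts were deposited as a table of raw counts for 20 libraries, made by the authors with STAR, featureCounts and hg19, per the submitters' processing notes, whose versions and strand setting are not given in the sources used here. Per the labels' protocols, cell RNA was prepared with a Roche KAPA stranded kit with RiboErase, and vesicle RNA with an Invitrogen exosome RNA kit, SMART-Seq v4 and Nextera XT. Antisense genes are annotated over SMAD2, SMAD3 and ID2, and their reads cannot be told apart in the vesicle libraries, whose kit does not mark strand.

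From these counts edgeR 4.0.16 (robust quasi-likelihood, TMM, filterByExpr) was run in R 4.3.3 on all genes with the line as a block, with p-values adjusted by Benjamini-Hochberg over all genes tested. Vesicle and cell libraries were paired because the labels give both to 1 line. Their deviations correlated at 0.0836 (SNU-C1) to 0.546 (LS513) by line. CPM values used TMM-scaled library sizes, except the worth of 3 counts and the marker sums, which used library size alone. log2 CPM for r used a prior count of 2 and 100000 permutations of the lines, two-sided. TPM used exonic lengths of GENCODE annotation. Expected background is the mean vesicle count of genes that had no more than 10 counts in any cell library, in 5 length and 3 GC classes. The longest class is open-ended, so TGFBR1, SMAD4 and SMAD2 shared the same expected background in each line. Their annotated exons span 6.84, 13.1 and 36.4 kb, and the background was not scaled to length within the class. Cecum was set against colon by the same edgeR test within each compartment. Alternatives were other scalings, no filter, no block, DESeq2 1.42.0, background subtraction, the 5 lines of lower or of higher background, and leaving out lines. The fit of the 5 lines of higher background and the test of their difference were added after seeing the data. The fits were tested on simulated data. The members, the lists and the rule for named genes (up to 3 per role by smallest adjusted p among genes averaging 1 CPM or more in cells, and the 3 highest r per member, left out for SMAD2 and SMAD4) were chosen with earlier results of these data known. The worth of 3 counts, given in CPM as a floor, covers counting error only. No other column was used.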

Additional observations from a re-analysis of the deposited data

Results flagged for a closer look

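The vesicle minus cell difference of ID2 in SNU-C1, -4.37 on the log2 scale, lay apart from the other 9 lines: its gap to the next lowest line was 0.544 of the whole range, above Dixon's critical share for 10 lines. It was 1 flag in 30 such tests, and chance gives about 1 in 20. The SNU-C1 vesicle value came from 43 counts, and that library had the largest share of background, 45.4%. The part of background in the difference was not tested.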

How the results depend on the processing

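Without the replicate block, 8 members were lower instead of 9 (SMAD2 did not pass, at -0.47), with 3470 genes higher and 3438 lower. The number of genes called lower was 2802 with DESeq2 size factors, 1759 with upper-quartile scaling, 2465 with library size only, 2429 with background subtracted and 2816 in the 5 lines of lower background. Genes called higher were 6957 with upper-quartile scaling, 8004 with DESeq2, 1889 with background subtracted and 2881 in the lines of lower background, where 4 members were lower. SMAD2 turned to 0.17 (upper-quartile) and 0.083 (background subtracted), and ID3 to 0.11 (upper-quartile). The median of all genes moved to 0.38 with DESeq2 size factors, 0.48 with library size and 0.76 with upper-quartile scaling. Leaving out 1 line gave 2383 (without LoVo) to 4277 genes lower, 3895 to 4749 higher and 7 to 9 members lower. Without LoVo, SMAD2 and ID2 (edgeR adjusted p = 0.0507) did not pass. For r across lines, leaving out 1 line gave 0 to 248 genes and 0 to 1 members past the threshold. Leaving out WiDr and LS123 gave 69 genes and 0 members, with BMP4 and ID2 not tested. A member whose lines fell into separate sets in a fit was not tested in that fit. For cecum over colon in cells, DESeq2 called 140 genes higher and 257 lower, leaving out WiDr and LS123 gave 2 higher, and leaving out 1 line gave 0 to 1 higher and 0 to 1 lower. In vesicles, library size gave 0 higher and leaving out 1 line gave 1 to 4. The cause of these changes was not tested. Nearness to background limits the vesicle values of SMAD7, TGFBR1 and SMAD3 and the low ones of ID3 and SMAD4.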
